A study of Mus musculus with 10 samples.

Results

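The Arp2/3 complex was followed through its subunit genes in mouse embryos at the 8-cell stage. Members were chosen by symbol: Arpc1a, Arpc1b, Arpc2, Arpc3, Arpc4, Arpc5, Arpc5l, Actr2 and Actr3, which are 9 of the 24421 genes in the tables. The RNA came from 10 libraries of BDF1 embryos in 5 groups of 2 libraries: a control (Ctrl), a knockdown of the Krüppel-like factor Klf5 (siKlf5), a knockdown of the AP-2 family factor Tfap2c (siTfap2c), and 2 knockouts of Tfap2c motifs in the genome (Arpc1bE_CdxE1_KO and CdxE2_KO). The name of the first knockout holds Arpc1b and Cdx, and that of the second Cdx alone; Cdx2, a trophectoderm transcription factor gene, was read as a check in both. All embryos were freed of the zona pellucida and polar bodies before RNA extraction. The labels describe neither the reagent given to the control, nor where the deleted motifs lie, nor what share of cells or embryos carried a deletion, and they do not say whether replicates came from separate embryo pools. P-values therefore measure the spread between libraries, which may be technical.

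The Arp2/3 complex starts new actin filaments as branches on the side of existing ones. Actr2 and Actr3 encode Arp2 and Arp3, which resemble actin and form the base of the new branch. Arpc2 and Arpc4 form the structural core that holds the mother filament, Arpc3 contacts Arp3, and Arpc1 and Arpc5 sit on the Arp2 side. Mammals have paralogues for Arpc1 (Arpc1a and Arpc1b), for Arpc5 (Arpc5 and Arpc5l) and for Arp3 (Actr3 and Actr3b), and a complex takes up either member of a pair. At the 8-cell stage the actin cortex is remodelled while blastomeres compact and polarise.

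Arpc1a and Arpc1b are neighbours in the genome. On mm10, in GENCODE M21, Arpc1a spans chromosome 5 from 145083830 to 145108761 and Arpc1b from 145114215 to 145130705, both on the plus strand. There are 5453 bases between them, with 0 genes starting in the gap. Another 2170099 bases separate the end of Arpc1b from the 3′ end of Cdx2, which is on the minus strand. The sequence before each gene is shown because Arpc1b fell with Tfap2c while its neighbour did not pass the test, and that before Arpc5 because it fell in both knockdowns. They are RefSeq sequences of GRCm38.p6, plus strand, at chr5:145114006-145114241 for Arpc1b, chr5:145083619-145083829 for Arpc1a and chr1:152766292-152766541 for Arpc5. Capitals mark a match to a pattern of AP-2 sites, GCC and GGC with any 4 bases between.
Arpc1b: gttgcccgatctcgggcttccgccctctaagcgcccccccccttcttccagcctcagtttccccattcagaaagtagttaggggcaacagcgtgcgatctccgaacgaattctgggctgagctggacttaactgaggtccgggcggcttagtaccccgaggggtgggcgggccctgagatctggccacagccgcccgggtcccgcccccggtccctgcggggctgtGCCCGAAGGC
Arpc1a: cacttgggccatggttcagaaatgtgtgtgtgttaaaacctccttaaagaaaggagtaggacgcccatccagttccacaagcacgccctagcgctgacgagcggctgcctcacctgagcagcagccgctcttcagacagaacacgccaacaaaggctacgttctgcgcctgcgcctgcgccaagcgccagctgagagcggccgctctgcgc
Arpc5: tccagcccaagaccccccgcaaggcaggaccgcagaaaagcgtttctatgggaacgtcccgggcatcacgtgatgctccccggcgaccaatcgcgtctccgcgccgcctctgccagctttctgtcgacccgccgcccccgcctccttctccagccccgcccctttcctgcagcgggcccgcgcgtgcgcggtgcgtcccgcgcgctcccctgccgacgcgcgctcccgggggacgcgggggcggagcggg
The Arpc1b match, GCCCGAAGGC, starts 17 bases inside the GENCODE gene model, upstream of the RefSeq start. Windows of 300 bases, 250 before and 50 after the RefSeq start, were at hand for 8 of the 9 members and were searched on both strands. This pattern stood in 4 of the 8 (Arpc1b, Arpc2, Arpc3 and Actr3) and in 14.8% of all 32851 windows. The AP-2 pattern with 3 bases between, GCCNNNGGC, stood in 3 (Arpc2, Actr2 and Actr3) and in 16.6% of all windows, and the Klf pattern GGGNGTGG in 0 and in 17.6%. Neither Arpc1a nor Arpc5 held any of these 3 patterns in its window. Other forms of AP-2 or Klf sites were not searched, so their absence is not shown. Of the 4 members with the marked pattern, Arpc1b differed from Ctrl in siTfap2c by -3.34 and was called. Arpc2, Arpc3 and Actr3 differed by 0.06, 0.15 and 0.08, none called. Among members without the pattern, Arpc5 differed by -0.67 and was called. Arpc1a, Arpc4 and Actr2, also without it, differed by -0.09, -0.15 and -0.05, none called. A link between matches and differences was not tested. A match describes letters and is not a measured binding site.

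Values are log2(abundance + 1) as deposited. The kind of abundance is not named, so levels are compared between groups and not between genes. Depth is unknown. The 4 motif knockout libraries stand apart: their linear values summed to 478651 to 498621, against 388454 to 395401 in the other 6, and their smallest value above 0 was 0.000349 to 0.000881, against 9.98e-08 to 2.36e-06. The median gene lay 0.27 above Ctrl in Arpc1bE_CdxE1_KO and 0.29 above Ctrl in CdxE2_KO. In comparisons of these knockouts with Ctrl, processing and genotype cannot be told apart, so differences are also given after centring each library on its median. All 10 markers of the 8-cell embryo were above 0 in every library, though Sox2 was only at 0.05 to 1.07 log2 units. Of 12 cumulus and granulosa cell markers, 11 stayed below 1 log2 unit in all 10 libraries, and 2 of these, Fshr and Lum, were at 0. The exception was Inhbb, at 0.54 to 2.27 and so also above 0 in every library. The summed linear level of the 12 was 1.57 to 1.63 in Ctrl, 0.870 to 2.08 in the knockdowns and 2.46 to 4.87 in the knockouts; that of 10 oocyte markers was 45.5 to 48.0, 43.2 to 52.6 and 56.0 to 72.7. The summed linear level of the 10 8-cell markers was 599 to 615 in Ctrl, 414 to 419 in siKlf5, 264 to 297 in siTfap2c, 645 to 664 in Arpc1bE_CdxE1_KO and 567 to 609 in CdxE2_KO. That list holds the knockdown targets Tfap2c and Klf5; its other 8 summed to 363 to 373 in Ctrl, 303 to 309 in siKlf5 and 211 to 238 in siTfap2c. The part of these markers in the results below was not tested. The knockdown targets were lower than in Ctrl in their own libraries, Klf5 by a log2 difference of -2.90 and Tfap2c by -2.60. Klf5 was also lower in siTfap2c, by -1.78 (limma adjusted p = 4.7e-06), so its level was reduced in both knockdowns. Tfap2c in siKlf5 differed from Ctrl by -0.07 (limma adjusted p = 0.70). Cdx2 differed from Ctrl by -1.23 in siKlf5 and by -2.02 in siTfap2c. In bulk RNA, fewer cells of a type and less RNA per cell cannot be told apart.

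**Figure D1:**
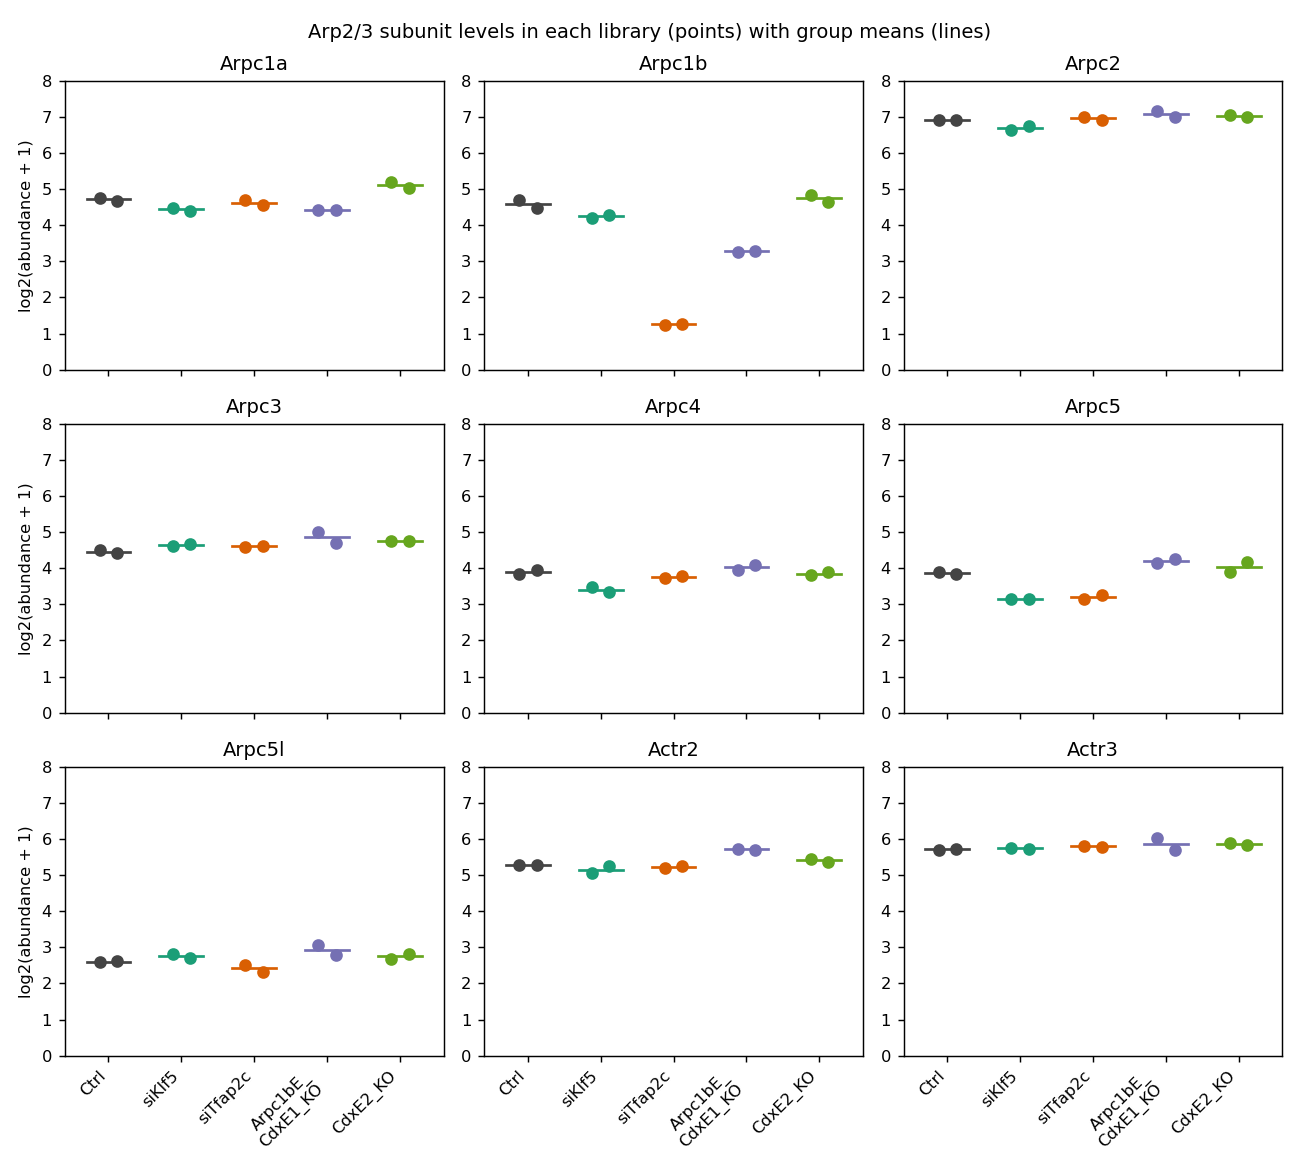
Level of each Arp2/3 subunit gene in each library, log2(abundance + 1), by group; points are libraries and lines are group means. Arpc1b stands at 1.24 and 1.26 in siTfap2c and at 3.27 and 3.30 in Arpc1bE_CdxE1_KO, and at 4.21 to 4.84 in the other 6 libraries.

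Arpc1b, the paralogue that with Arpc1a fills the same place in the complex, was the member with the largest difference. It stood at 4.71 and 4.48 log2 units in Ctrl, 4.21 and 4.28 in siKlf5, 1.24 and 1.26 in siTfap2c, 3.27 and 3.30 in Arpc1bE_CdxE1_KO, and 4.84 and 4.66 in CdxE2_KO. The siTfap2c libraries were lowest and the Arpc1bE_CdxE1_KO libraries next, and neither overlapped any other group, while the Ctrl and CdxE2_KO libraries overlapped. On the linear scale the siTfap2c mean was 5.95% of the Ctrl mean and the Arpc1bE_CdxE1_KO mean 37.7%. The log2 difference from Ctrl in siTfap2c was -3.34 (SE 0.11, 95% interval -3.59 to -3.09, limma adjusted p = 2.1e-07), rank 6 of 11195 genes by p. Without each library in turn it was -3.46 to -3.23.

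In Arpc1bE_CdxE1_KO, Arpc1b fell by 1.31 on the log2 scale against Ctrl (SE 0.12, 95% interval -1.59 to -1.02, limma adjusted p = 0.002), while the median gene lay 0.27 higher. With libraries centred on their medians the difference was -1.63 (limma adjusted p = 0.0009), and without each library in turn it was -1.42 to -1.19 with every adjusted p at or below 0.022. In CdxE2_KO the difference from Ctrl was 0.16 (95% interval -0.13 to 0.44, limma adjusted p = 0.35), or -0.17 after centring (limma adjusted p = 0.42). In siKlf5 it was -0.35 (95% interval -0.60 to -0.10, limma adjusted p = 0.095), and the 2 siKlf5 libraries lay below both Ctrl libraries. The comparisons with Ctrl share the 2 control libraries.

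The knockouts can also be compared with each other, between libraries of like sums and with a median difference over all genes of -0.02. Here Arpc1b was lower in Arpc1bE_CdxE1_KO than in CdxE2_KO by a log2 difference of -1.46 (SE 0.12, 95% interval -1.75 to -1.18, limma adjusted p = 0.019). It was the only member called, 1 of 9, against 0.0458% of genes tested, 5 of 10920 (0.00916% higher and 0.0366% lower), and ranked 3 of 10920 by p. The call was lost without CdxE2_KO replicate 1 or replicate 2 (log2 difference -1.37 to -1.55, highest limma adjusted p 0.077), and the whole count of 5 genes ranged from 0 to 200 over the alternatives. Cdx2 stood at 0.77 and 1.53 log2 units in Arpc1bE_CdxE1_KO and differed from Ctrl by -1.26 there (limma adjusted p = 0.018) and by -1.54 in CdxE2_KO (limma adjusted p = 0.0081). Without Ctrl replicate 1 or replicate 2 both calls were lost (highest limma adjusted p 0.10 in Arpc1bE_CdxE1_KO and 0.056 in CdxE2_KO), and the Arpc1bE_CdxE1_KO difference ranged from -1.64 to -0.89 without each library in turn. The direct comparison of siTfap2c with Arpc1bE_CdxE1_KO, added after the data were seen, placed Arpc1b lower in siTfap2c by a log2 difference of -2.03 (SE 0.11, 95% interval -2.28 to -1.79, limma adjusted p = 2.1e-06). Those groups come from libraries of unlike sums; with centring it was -1.73.

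Pdap1, which lies on the opposite strand and overlaps the 3′ end of Arpc1b by 1937 bases, is the gene whose reads could be mistaken for those of Arpc1b were strand ignored. The kit is stranded, and whether the counting used strand is not given in the sources used here. Pdap1 stood at 6.84 and 6.89 log2 units in Ctrl, 6.94 and 7.001 in siTfap2c, 6.53 and 6.78 in Arpc1bE_CdxE1_KO and 7.40 and 7.29 in CdxE2_KO. Its difference from Ctrl was 0.11 in siTfap2c (limma adjusted p = 0.43) and -0.21 in Arpc1bE_CdxE1_KO (limma adjusted p = 0.18). In CdxE2_KO Pdap1 was 0.48 above Ctrl (limma adjusted p = 0.017), a call lost without each of the 4 libraries (highest limma adjusted p 0.10) and with centring (0.15, limma adjusted p = 0.46). With centring the Arpc1bE_CdxE1_KO difference was -0.53 (limma adjusted p = 0.059). In the direct comparison of knockouts Pdap1 differed by -0.69 (limma adjusted p = 0.18). It was higher in siTfap2c than in Arpc1bE_CdxE1_KO by 0.32 (limma adjusted p = 0.019), where Arpc1b was lower.

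Arpc1a, the other Arpc1 paralogue, was at 4.77 and 4.67 log2 units in Ctrl, 4.48 and 4.41 in siKlf5, 4.70 and 4.57 in siTfap2c, 4.42 and 4.43 in Arpc1bE_CdxE1_KO, and 5.19 and 5.04 in CdxE2_KO. The siTfap2c libraries overlapped Ctrl, the CdxE2_KO libraries were highest, and those of siKlf5 and Arpc1bE_CdxE1_KO lay together below Ctrl. In siTfap2c the difference from Ctrl was -0.09, with a 95% interval of -0.29 to 0.12 (limma adjusted p = 0.54). In siKlf5 it was -0.28 (limma adjusted p = 0.10). In CdxE2_KO it was 0.39 (SE 0.10, limma adjusted p = 0.026), a call lost without each of the 4 libraries (highest limma adjusted p 0.14) and with centring (0.06, limma adjusted p = 0.75). In Arpc1bE_CdxE1_KO it was -0.29 (95% interval -0.52 to -0.06, limma adjusted p = 0.069), and with centring -0.61 (limma adjusted p = 0.027), a call that centring added. Between the knockouts Arpc1a differed by -0.69 (95% interval -0.92 to -0.45), but its limma adjusted p was 0.18.

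Within a library, the log2 level of Arpc1b minus that of Arpc1a depends on scaling only through the added constant. It was -0.06 and -0.20 in Ctrl, -0.27 and -0.13 in siKlf5, -3.46 and -3.30 in siTfap2c, -1.15 and -1.13 in Arpc1bE_CdxE1_KO, and -0.35 and -0.38 in CdxE2_KO. Only siKlf5 overlapped Ctrl. The shift from Ctrl was -3.25 in siTfap2c, -1.01 in Arpc1bE_CdxE1_KO, -0.24 in CdxE2_KO and -0.07 in siKlf5. With an added constant of 5 the siTfap2c shift was -2.06, and without each library in turn the shift was -0.14 to -0.0014 in siKlf5 and -0.30 to -0.17 in CdxE2_KO. With 2 libraries against 2, the two-sided exact permutation test cannot go below 0.333, which each of the 3 groups apart from Ctrl reached. Against the mean of Arpc2, Arpc3, Arpc4, Actr2 and Actr3, the subunits without a member paralogue, Arpc1b shifted by -3.36 in siTfap2c, -1.56 in Arpc1bE_CdxE1_KO, -0.22 in siKlf5 and 0.03 in CdxE2_KO. CdxE2_KO alone overlapped Ctrl in that measure. Without each library in turn its shift was -0.09 to 0.15, and that of siKlf5 was -0.34 to -0.10 (-0.34 without Ctrl replicate 2, -0.10 without Ctrl replicate 1). With the constant of 5 the siTfap2c shift was -2.16. Arpc1a shifted against the same mean by -0.11 in siTfap2c, overlapping Ctrl, by -0.15 in siKlf5, -0.55 in Arpc1bE_CdxE1_KO and 0.27 in CdxE2_KO.

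**Figure D2:**
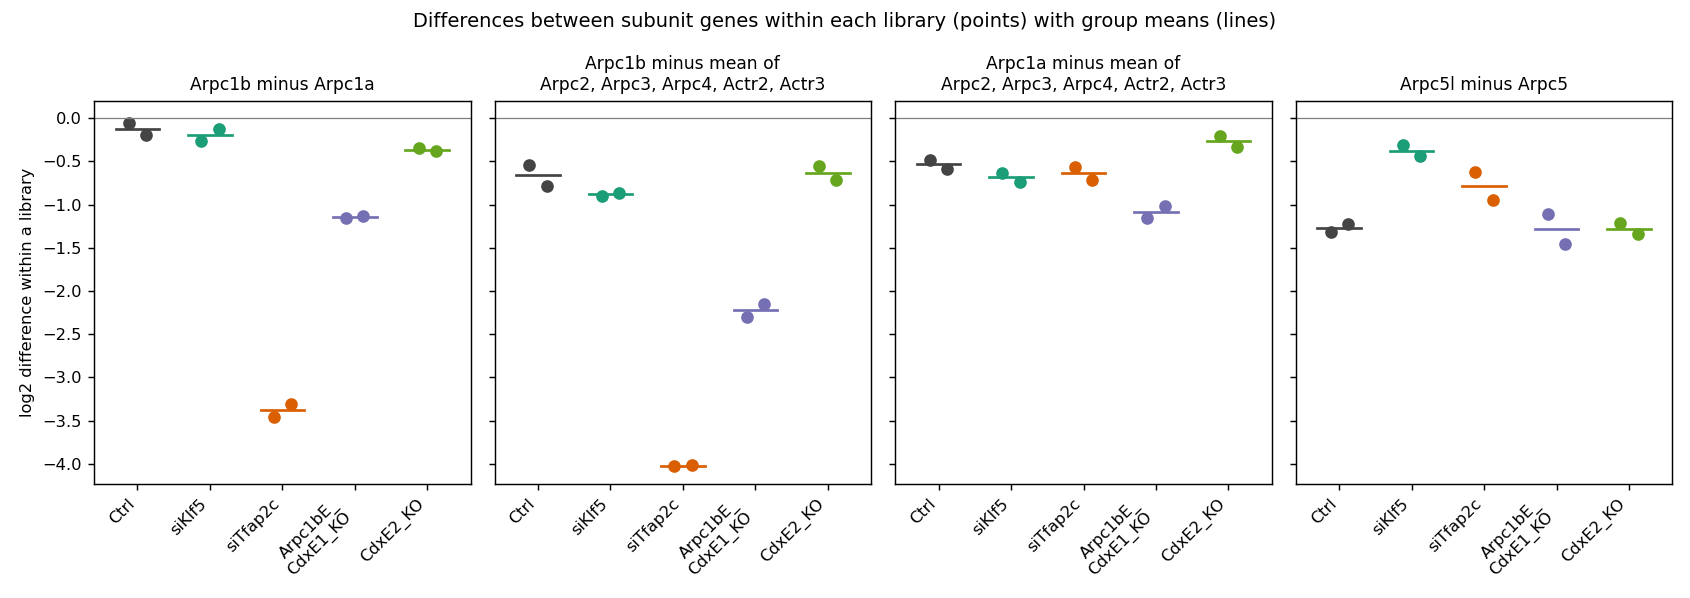
Differences between subunit genes within each library, in log2 units, by group; points are libraries and lines are group means. Arpc1b minus Arpc1a falls to -3.46 and -3.30 in siTfap2c and to -1.15 and -1.13 in Arpc1bE_CdxE1_KO, and Arpc5l minus Arpc5 is nearest 0 in siKlf5, at -0.31 and -0.44.

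Arpc5 (chromosome 1, 152766542 to 152775597), whose product closes the Arp2 side of the complex, fell in both knockdowns. It stood at 3.90 and 3.85 log2 units in Ctrl, 3.14 and 3.14 in siKlf5, 3.15 and 3.27 in siTfap2c, 4.16 and 4.25 in Arpc1bE_CdxE1_KO, and 3.90 and 4.17 in CdxE2_KO. All 4 knockdown libraries lay below the other 6. The difference from Ctrl was -0.74 in siKlf5 (SE 0.11, 95% interval -0.98 to -0.49, limma adjusted p = 0.0058) and -0.67 in siTfap2c (SE 0.11, 95% interval -0.92 to -0.42, limma adjusted p = 0.0023). The siTfap2c call held without each library in turn (highest limma adjusted p 0.025), while that in siKlf5 was lost without Ctrl replicate 1 (limma adjusted p = 0.053). The knockdowns differed from each other by 0.07 (95% interval -0.18 to 0.32, limma adjusted p = 0.70). Klf5 was itself lower than Ctrl in both, by -2.90 in siKlf5 and -1.78 in siTfap2c. Its part in the Arpc5 differences was not tested. In the knockouts Arpc5 was 0.33 above Ctrl in Arpc1bE_CdxE1_KO (limma adjusted p = 0.086) and 0.16 in CdxE2_KO (limma adjusted p = 0.34), beside 0.27 and 0.29 for the median gene. Arpc5 was lower in siTfap2c than in Arpc1bE_CdxE1_KO, where the median gene differed by -0.25, by a log2 difference of -0.998 (limma adjusted p = 0.00014), or -0.69 with centring (limma adjusted p = 0.0015).

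Arpc5l (chromosome 2, 39005348 to 39015877), the paralogue of Arpc5, was at 2.59 and 2.62 log2 units in Ctrl, 2.83 and 2.70 in siKlf5, 2.52 and 2.33 in siTfap2c, 3.05 and 2.79 in Arpc1bE_CdxE1_KO, and 2.69 and 2.83 in CdxE2_KO. No difference from Ctrl passed limma: they were 0.16 in siKlf5 (95% interval -0.14 to 0.46), -0.18 in siTfap2c (-0.48 to 0.12), 0.32 in Arpc1bE_CdxE1_KO (-0.02 to 0.65) and 0.15 in CdxE2_KO (-0.18 to 0.49). With centring the knockout differences were -0.0016 in Arpc1bE_CdxE1_KO and -0.18 in CdxE2_KO. Arpc5l minus Arpc5 within a library was -1.31 and -1.23 in Ctrl, -0.31 and -0.44 in siKlf5 and -0.63 and -0.94 in siTfap2c. Both knockdowns lay above Ctrl without overlap, by 0.89 in siKlf5 and 0.49 in siTfap2c (two-sided exact permutation p = 0.333 in each, the smallest possible). In both knockouts the shift was -0.01 and the libraries overlapped Ctrl; without each library in turn it was -0.19 to 0.17 in Arpc1bE_CdxE1_KO and -0.07 to 0.05 in CdxE2_KO. Between siTfap2c and siKlf5, Arpc5l differed by -0.34 (limma adjusted p = 0.094), or by -0.41 with centring, where it was called (limma adjusted p = 0.044). Arpc5l overlaps Wdr38 on the same strand by 821 bases, so part of its signal could be split between them. It overlaps Rpl35 on the other strand by 277 bases, and Rpl35 reads could be counted for Arpc5l were strand ignored. Rpl35 stood at 9.51 and 9.44 log2 units in Ctrl, 9.73 and 9.73 in siKlf5 and 9.56 and 9.56 in siTfap2c. It stood at 10.23 and 9.78 in Arpc1bE_CdxE1_KO and 9.69 and 9.65 in CdxE2_KO. The part of Rpl35 in the Arpc5l values was not tested.

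Arpc4 (chromosome 6, 113378115 to 113390448), a core subunit that grips the mother filament, stood at 3.85 and 3.97 log2 units in Ctrl, 3.48 and 3.33 in siKlf5, 3.72 and 3.80 in siTfap2c, 3.95 and 4.10 in Arpc1bE_CdxE1_KO, and 3.80 and 3.89 in CdxE2_KO. The siKlf5 libraries were lowest. They were below Ctrl by a log2 difference of -0.50 (SE 0.10, limma adjusted p = 0.022), but the call was lost without each of the 4 libraries (limma adjusted p 0.057 to 0.14). In siTfap2c the difference was -0.15 (limma adjusted p = 0.35), and between siTfap2c and siKlf5 it was 0.35 (limma adjusted p = 0.034), also lost without each library (0.058 to 0.18) and with centring (0.28, limma adjusted p = 0.080). Ttll3 overlaps Arpc4 on the same strand by 1189 bases, so reads there could be split between them.

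Arpc2 (chromosome 1, 74236084 to 74268209), its partner in that core, was at 6.91 and 6.91 log2 units in Ctrl, 6.64 and 6.76 in siKlf5, 7.02 and 6.91 in siTfap2c, 7.17 and 6.999 in Arpc1bE_CdxE1_KO, and 7.06 and 7.01 in CdxE2_KO. The siKlf5 libraries were the lowest of the 10 and did not overlap Ctrl, with a difference of -0.21 (95% interval -0.39 to -0.02, limma adjusted p = 0.17). In siTfap2c the difference from Ctrl was 0.06 (95% interval -0.13 to 0.24, limma adjusted p = 0.67). Arpc2 was higher in siTfap2c than in siKlf5 by 0.26 (limma adjusted p = 0.041), a call lost without each library and with centring (0.19, limma adjusted p = 0.12).

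Actr2 (chromosome 11, 20062304 to 20112913), which encodes Arp2, stood at 5.28 and 5.27 log2 units in Ctrl, 5.05 and 5.25 in siKlf5, 5.20 and 5.24 in siTfap2c, 5.73 and 5.71 in Arpc1bE_CdxE1_KO, and 5.46 and 5.37 in CdxE2_KO. The Arpc1bE_CdxE1_KO libraries were highest. The difference from Ctrl there was 0.44 (SE 0.08, limma adjusted p = 0.015), and with centring 0.12 (limma adjusted p = 0.43); the call was lost without either Ctrl library (highest limma adjusted p 0.099). Against CdxE2_KO it was 0.31 (95% interval 0.11 to 0.51, limma adjusted p = 0.32). In the knockdowns it was -0.13 in siKlf5 (95% interval -0.32 to 0.07) and -0.05 in siTfap2c (95% interval -0.25 to 0.14).

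Actr3 (chromosome 1, 125392905 to 125435727), which encodes Arp3, lay between 5.71 and 6.03 log2 units in all 10 libraries. Its differences from Ctrl were 0.03 in siKlf5, 0.08 in siTfap2c and 0.14 in each knockout, with limma adjusted p from 0.38 to 0.92. With centring the sign turned in the knockouts, to -0.18 in Arpc1bE_CdxE1_KO and -0.19 in CdxE2_KO (limma adjusted p = 0.38 and 0.33). Arpc3 (chromosome 5, 122391878 to 122414184), the subunit next to Arp3, stood at 4.50 and 4.42 log2 units in Ctrl, 4.62 and 4.67 in siKlf5, 4.58 and 4.63 in siTfap2c, 5.003 and 4.71 in Arpc1bE_CdxE1_KO, and 4.74 and 4.75 in CdxE2_KO. Ctrl was lowest. No difference from Ctrl passed: 0.18 in siKlf5 (95% interval -0.05 to 0.42), 0.15 in siTfap2c (-0.08 to 0.38), 0.40 in Arpc1bE_CdxE1_KO (limma adjusted p = 0.050, above the threshold before rounding, and 0.08 with centring) and 0.29 in CdxE2_KO (limma adjusted p = 0.10). With centring the Arpc3 difference in CdxE2_KO was -0.04 (limma adjusted p = 0.86). Actr3b, the Arp3 paralogue outside the member list, was too low to be tested, at 0.14 to 0.92 log2 units over all libraries.

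**Figure D3:**
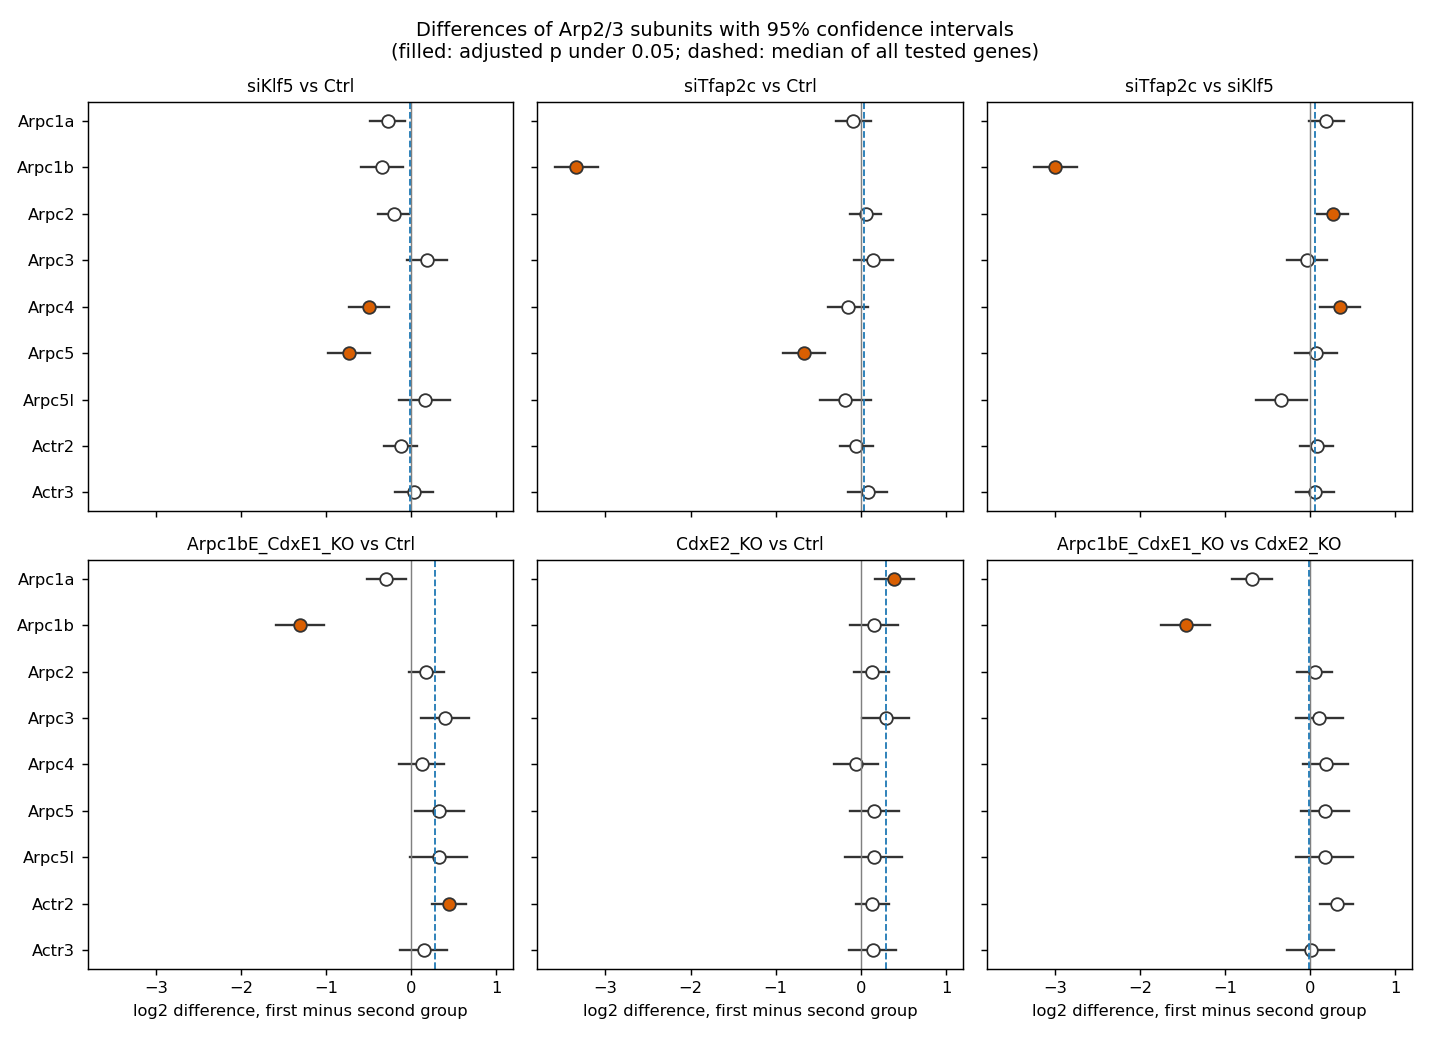
Log2 difference of each subunit gene (first minus second group of each panel's title), with 95% intervals from limma; filled points passed an adjusted p of 0.05 and the dashed line is the median of all tested genes. Arpc1b lies farthest left in siTfap2c (-3.34) and in Arpc1bE_CdxE1_KO (-1.31) against Ctrl.

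Counts of called members are read against the share of all tested genes called in the same comparison. In siKlf5, 2 of 9 fell (Arpc4 and Arpc5) against 7.52% of genes called in either direction, 2.25% higher and 5.27% lower, and the members' median was -0.21 beside -0.02 over all genes; without each library in turn 0 or 1 members were called. In siTfap2c, 2 of 9 fell (Arpc1b and Arpc5), which is 22.2% beside 24.6% of all genes (12.6% higher and 11.9% lower), and the medians were -0.09 and 0.04. That share is near the background, so the count by itself sets the members apart from no other genes. In Arpc1bE_CdxE1_KO, Actr2 rose and Arpc1b fell, against 24% of all genes; 23.2% were called higher and 0.815% lower, and without each library in turn 1 to 5 members were called. In CdxE2_KO, 1 member was called, Arpc1a, against 29.9% of genes (28.5% higher and 1.44% lower), and 0 were called without each library in turn or with centring. Between the knockdowns 3 of 9 were called, Arpc1b, Arpc2 and Arpc4, against 25.6% of genes (15.1% higher and 10.5% lower), and without each library in turn 1, Arpc1b. With centring 2 were called, Arpc1b and Arpc5l. Between siTfap2c and Arpc1bE_CdxE1_KO, 4 were called, Arpc1b, Arpc5, Arpc5l and Actr2, all lower in siTfap2c, against 42.4% of genes, 7.12% higher and 35.3% lower. Centring turned that split over all genes, from 797 higher and 3955 lower to 2088 higher and 1624 lower. With centring Arpc5l (-0.20, limma adjusted p = 0.27) and Actr2 (-0.19, limma adjusted p = 0.14) were no longer called and Arpc1a was called higher (0.51, limma adjusted p = 0.0027).

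Around the complex, 7 lists of 106 genes that switch it on, recruit it, oppose it or act on other actin filaments were read in the same fits. In siTfap2c, 10 of the 86 tested rose and 19 fell, 33.7% against 24.6% of all genes, with a median of 0.06 against 0.04; without each library in turn 3 or 4 rose and 10 to 14 fell. Over all genes 12.6% were called higher and 11.9% lower. Among nucleation-promoting factors, which activate the complex, 2 of 9 rose and 2 fell. Jmy, which also co-activates p53, rose by 0.62 and Cttn, cortactin, which stabilises branches, by 0.37, and Dbnl, an actin-binding adaptor, fell by 0.51 and Was, the founding WASP gene, by 0.72. The calls of Cttn and Was were lost without each library (highest limma adjusted p 0.15 and 0.14). Of 12 partners in the WAVE, WASH and WASP assemblies 2 rose and 2 fell, with the WAVE subunits Cyfip2 at 0.79 and Nckap1 at 0.28, the WASP-interacting Wipf1 at -0.82 and Fam21, a WASH subunit, at -0.36; only Cyfip2 kept its call without each library.

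The list counts in siTfap2c stand beside 24.6% of all genes called, 12.6% higher and 11.9% lower. The shares called were 40% of upstream GTPases and adaptors and 44.4% of monomer, capping and severing factors. They were 25% of opposing factors and 23.5% of other nucleators, near the share of all genes, and 14.3% of other actin-related proteins, below it. Of the 15 upstream GTPases and adaptors tested in siTfap2c, 1 rose and 5 fell. The adaptor Nck2, which brings WASP proteins to membranes, had a log2 difference of -1.76 (limma adjusted p = 4.3e-05), the Rac exchange factor Tiam1 one of -0.62, Baiap2, an adaptor that links Rac to WAVE, -0.78 and the GTPase Rhob -0.89. These 4 kept their calls without each library. Of 8 genes that oppose the complex or remove branches, the coronin Coro1c fell by 1.06 and the coronin Coro2a rose by 0.87, both kept without each library. Of 18 monomer, capping and severing factors 2 rose and 6 fell, among them the monomer-binding thymosin Tmsb10 (-1.11) and the severing factor Cfl1, cofilin (-0.50), both kept, Ssh2, a cofilin phosphatase (-0.77), and on the other side Cfl2 (0.52); Ssh2 and Cfl2 each lost the call without 1 library. Of 17 other nucleators and elongators 1 rose and 3 fell, Fmn1 (0.55), Vasp (-0.84), Diap2 (-0.65) and Inf2 (-0.66), of which only Vasp was kept. Of 7 other actin-related proteins only Actl6a, a subunit of chromatin remodellers, was called, at 0.33, and lost without each library.

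In siKlf5, 0 of the 86 list genes rose and 10 fell by limma, 11.6% against 7.52% of all genes. At an unadjusted limma p under 0.05 the counts were 1 and 27, beside 2493 of 11195 genes in either direction. Without each library in turn 1 to 3 fell, and with centring 1 rose and 6 fell. The falls were the GTPase Rhoa (-0.59, limma adjusted p = 0.0022), Tmsb10 (-0.74), the monomer-binding twinfilin Twf1 (-0.53), Cfl2 (-0.56), Cfl1 (-0.40), the cofilin kinase Limk1 (-0.66), the elongator Vasp (-0.64), the nucleators Spire2 (-0.57) and Inf2 (-0.64), and the nucleation-promoting factor Whamm (-0.70). Rhoa kept its call without each library, and of the other 9 none whose calls were followed (all but Limk1) did. Of the 12 WAVE, WASH and WASP partners 0 were called, and of the 8 opposing factors 0.

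In the knockouts the shares of list genes called lay near those of all genes. In Arpc1bE_CdxE1_KO 20 of 85 rose and 0 fell, 23.5% against 24% of all genes, and the list median of 0.23 lay beside 0.27 over all genes; with centring 0 rose and 0 fell, and without either Ctrl library 0 rose. In CdxE2_KO 22 rose and 2 fell, 28.2% against 29.9%; without each library in turn 1 to 7 rose and 0 fell. The falls were Nck2 (-0.66) and Coro2a (-0.65), and with centring these 2 fell and 1 rose, Gmfb. Gmfb, which removes branches from the complex's filaments, was at 4.26 and 4.33 log2 units in Ctrl, 5.24 and 4.95 in Arpc1bE_CdxE1_KO and 5.22 and 5.18 in CdxE2_KO. Its difference in CdxE2_KO was 0.91 (limma adjusted p = 0.0048) and 0.57 after centring (limma adjusted p = 0.033), and it kept its call without each library. Between the knockouts 0 of the 85 were called by limma. At an unadjusted limma p under 0.05, 3 were higher (the WASH subunit Ccdc53, Nck2 and Coro2a) and 3 lower (Jmy, Cyfip2 and Inf2). Over all genes 1238 of 10920 passed that threshold, so the list count does not stand out. These genes were named after their values were seen.

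**Figure D4:**
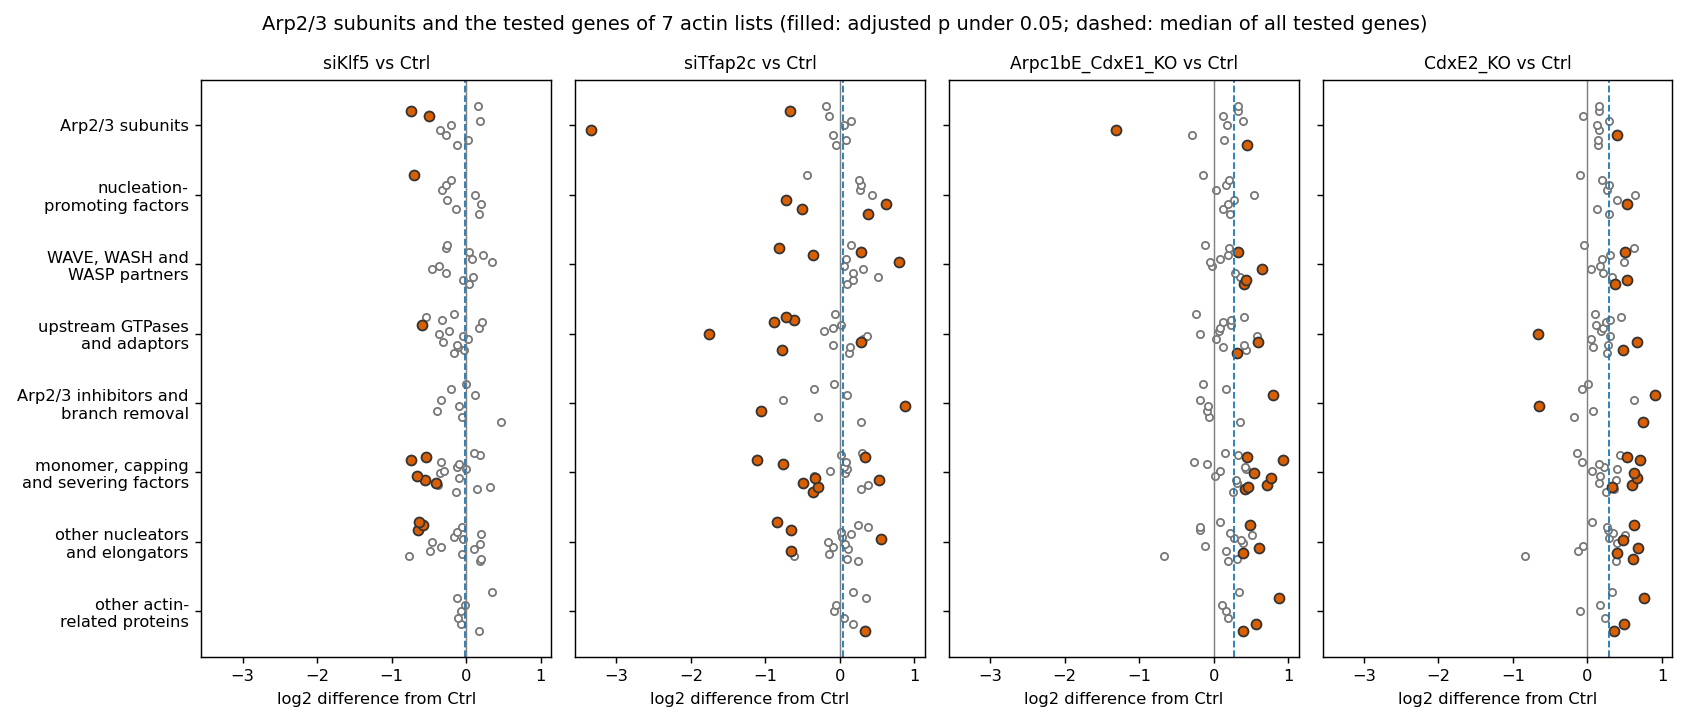
Log2 difference from Ctrl of each Arp2/3 subunit gene and each tested gene of the 7 actin lists, with 1 panel per comparison; filled points passed a limma adjusted p of 0.05 and the dashed line is the median of all tested genes. Filled list points lie on both sides of 0 in siTfap2c (10 higher, 19 lower), below 0 in siKlf5 (10), and nearly all above 0 in the knockouts (20 of 20 and 22 of 24).

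The genes whose levels followed Arpc1b most closely over the 10 libraries were ranked by Pearson correlation among 5387 genes that reached 10 linear units. They were the ubiquitin ligase Znrf3 (r = 0.97), the histone methyltransferase Setd8 (0.956), the autophagy kinase Ulk1 (0.954), the lysosomal glucosidase Gaa (0.947) and Jakmip1 (0.945). Spearman's rho was 0.93 for Znrf3, 0.72 for Setd8, 0.77 for Ulk1, 0.75 for Gaa and 0.84 for Jakmip1. These are descriptions over 10 libraries in 5 groups. The groups come from 3 tables, the values were not centred, and the knockout libraries have higher linear sums than the others. Jakmip1 stood at 1.59 and 1.72 log2 units in siTfap2c and at 3.51 to 4.37 in the other 8 libraries, and Ulk1 at 6.74 and 6.73 in siTfap2c and at 7.72 to 8.18 in the others. Ulk1 and Jakmip1 were thus low in the siTfap2c libraries, where Arpc1b was lowest, and Jakmip1 at 3.62 and 3.79 in Arpc1bE_CdxE1_KO was not below its siKlf5 values of 3.51 and 3.69. The other 8 members had correlations with Arpc1b of -0.19 to 0.47.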

How the data were processed

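The deposited values are gene abundances on a log2 scale with an added constant of 1, in 3 tables of 24421 genes, 1 of them holding Ctrl with both motif knockouts and 1 for each knockdown. The submitters' processing notes list HISAT2 2.1.0, SAMtools 1.7, StringTie 1.3.4, Cufflinks and mm10. Per the labels' protocols, random-primed stranded total RNA libraries were depleted of ribosomal cDNA. No read counts were used, and depth cannot be given.

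Genes reaching 1 linear unit in 2 or more libraries entered limma 3.58.1 (R 4.3.3, eBayes, trend). A call means an adjusted p under 0.05 by Benjamini-Hochberg over all genes tested. The knockdown fits joined the tables, using all 10 libraries (11195 genes, 5 residual degrees of freedom), while the knockout fits used the 6 libraries of their table (10920 genes, 3 residual degrees of freedom). The fits were tested on simulated data. Members, lists and tests were chosen with earlier results of these data known. Named genes are the 9 members, Actr3b, the targets and the 5 genes most correlated with Arpc1b. They also include, from each list, up to 4 called genes with the lowest p in each comparison with Ctrl. Limk1, Pdap1, Rpl35, Lsm5, Lpar1, Dbf4 and Dpm1-adnp were named beside this rule after their values were seen. So were the list genes given at an unadjusted p. All p-values of single genes are from limma. Alternatives were the added constant (0.1 and 5), the low-value filter (none and 5 linear units), centring or scaling of libraries, a replicate block, the libraries fitted and leaving out each library. Promoter sequences are from RefSeq and positions from GENCODE M21.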

Additional observations from a re-analysis of the deposited data

How the results depend on the processing

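Arpc1b kept its call against Ctrl in siTfap2c and in Arpc1bE_CdxE1_KO under every alternative run. The count of members called moved elsewhere. In siKlf5 it was 2 and ranged from 0 to 1 without each library. In Arpc1bE_CdxE1_KO it was 2, then 4 with the filter at 5 linear units and 5 with all 10 libraries in the fit, and 1 to 5 without each library. In CdxE2_KO it was 1, then 0 with libraries centred on their medians, 0 scaled to the same sum, 2 with only the 4 libraries compared, and 0 to 0 without each library. Between the knockouts it was 1, then 0 without the filter, 0 with only the 4 libraries and 2 with all 10, and 0 to 2 without each library. Between siTfap2c and siKlf5 it was 3, then 1 without the filter, 2 with centring (Arpc2 and Arpc4 lost, Arpc5l gained) and 1 to 1 without each library. The cause of these moves was not tested. Fits without a library or with only the 4 libraries compared also hold fewer samples.

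With an added constant of 0.1 and of 5, the shift of Arpc1b minus Arpc1a was -3.88 and -2.06 in siTfap2c and -1.09 and -0.78 in Arpc1bE_CdxE1_KO. Against the mean of the shared subunits Arpc1b shifted by -3.99 and -2.16 in siTfap2c, and by -1.26 in Arpc1bE_CdxE1_KO with the constant of 5. Arpc5l minus Arpc5 in siKlf5 shifted by 0.98 and 0.64. Nckap1 and Arf6, called higher in Arpc1bE_CdxE1_KO, reversed to -0.0016 and -0.012 with centring and to -0.0030 and -0.022 with scaling. Of 783 member values over the alternatives, 39 that were not called turned sign.

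Replicate numbers did not pair the libraries: the correlation of replicate differences between groups was -0.05 to 0.04. With the replicate block, 2 members were called in siKlf5, 2 in siTfap2c, 3 in Arpc1bE_CdxE1_KO (Arpc3 gained), 1 in CdxE2_KO, 1 between the knockouts and 2 between the knockdowns (Arpc2 lost).

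Over all genes, calls ranged from 211 (without Ctrl replicate 1) to 949 in siKlf5 (842 as fitted), from 1535 to 3303 in siTfap2c (2749), from 161 (without Ctrl replicate 2) to 3501 in Arpc1bE_CdxE1_KO (2621), from 514 (without CdxE2_KO replicate 2) to 4262 in CdxE2_KO (3270) and from 1587 to 3277 between the knockdowns (2865). Centring gave 379 higher and 441 lower in siKlf5 (252 and 590 as fitted), 178 and 143 in Arpc1bE_CdxE1_KO (2532 and 89), 288 and 393 in CdxE2_KO (3113 and 157), 1279 and 1472 between the knockdowns (1693 and 1172), and 2088 and 1624 between siTfap2c and Arpc1bE_CdxE1_KO (797 and 3955). Unknown depth limits the precision of low values.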

Other observations

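The direct comparison of the motif knockouts called 5 of 10920 genes by limma, which are named here after their values were seen; 1238 genes had an unadjusted p under 0.05. Beside Arpc1b, the RNA-binding Sm-like gene Lsm5 (log2 difference -1.76), the S phase kinase regulator Dbf4 (-0.78) and the transcript listed as Dpm1-adnp (-2.23) were lower in Arpc1bE_CdxE1_KO than in CdxE2_KO, and the lysophosphatidic acid receptor gene Lpar1 was higher (2.28). The limma adjusted p-values were 0.0045 for Lsm5 and Lpar1 and 0.042 for Dbf4 and Dpm1-adnp. Lsm5 stood at 3.50 and 3.63 log2 units in Ctrl, 3.79 and 3.66 in Arpc1bE_CdxE1_KO and 5.55 and 5.43 in CdxE2_KO. Lpar1 stood at 4.19 and 4.09 in Ctrl, 4.32 and 4.41 in Arpc1bE_CdxE1_KO and 2.27 and 1.91 in CdxE2_KO. For both genes the CdxE2_KO libraries stood apart and those of Arpc1bE_CdxE1_KO lay near Ctrl. Dbf4 stood at 6.95 and 6.9986 in Ctrl, 6.76 and 6.75 in Arpc1bE_CdxE1_KO and 7.4957 and 7.58 in CdxE2_KO, with Ctrl between the knockouts. Dpm1-adnp stood at 5.94 and 5.98 in Ctrl, 4.09 and 3.63 in Arpc1bE_CdxE1_KO and 6.40 and 5.77 in CdxE2_KO, so there the Arpc1bE_CdxE1_KO libraries stood apart, as they did for Arpc1b.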
